A study of Mus musculus with 16 samples.

Results

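Cytosolic ribosomal proteins are the protein part of the ribosomes that translate nuclear-encoded messenger RNA. The genes described here are the protein-coding genes whose symbols are Rpl or Rps and a number, with at most 1 letter and a further number after it, together with Rplp0, Rplp1, Rplp2 and Rpsa. S6 kinase genes, pseudogenes and Rpl36al, whose symbol ends in a pair of letters, were left out. These were 83 of the 54838 genes in the files, with 48 Rpl genes of the large (60S) subunit, 32 Rps and Rpsa genes of the small (40S) subunit, and the 3 stalk genes (Rplp). Messenger RNA was sequenced from whole liver of wild-type male C57BL/6J mice. In the injection experiment, 3 livers were taken 3 days after carbon tetrachloride (CCl4), a hepatotoxic solvent, mixed in equal volumes with olive oil, and 3 livers 3 days after olive oil, both given into the peritoneum at 2 µL per g of body weight. In the surgical experiment, 5 livers were taken 3 days after partial hepatectomy (PH day 3), the removal of part of the liver, and 5 samples were the liver removed at surgery (PH day 0). The age of the mice is not given in the sources used here.

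Each ribosome carries 1 copy of nearly every ribosomal protein, so cells make these proteins in matched amounts. Their mRNAs are among the most abundant and most evenly expressed in growing cells. In vertebrates these mRNAs start with a cytosine followed by a run of pyrimidines, the TOP motif. Through this motif mTORC1 and the RNA-binding protein LARP1 set their translation, so that ribosome output can change without a change in mRNA level. Ribosome production is known to increase in hepatocytes that re-enter the cell cycle. A few ribosomal proteins have a paralog (Rpl3l, Rpl10l, Rpl22l1, Rpl39l) that can take the place of the usual protein in some tissues.

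The libraries held 4738196 to 6218526 counts after CCl4 and 4295169 to 5221957 after olive oil. The day 3 libraries of the PH experiment held 2795909 to 4391002 counts, and its day 0 libraries 3271398 to 8647503. Levels are given as CPM, counts scaled to library size with TMM, a factor that aligns the bulk of genes between libraries. Hepatocyte marker transcripts summed to 91888 to 114488 CPM in CCl4 livers against 101137 to 112277 CPM in olive oil livers. They summed to 111606 to 128626 CPM at PH day 3 against 77246 to 94238 CPM at PH day 0, without overlap. The summed level of 5 proliferation markers was 206 to 431 CPM in CCl4 livers against 7.30 to 11.5 CPM in olive oil livers, and 84.0 to 202 CPM at PH day 3 against 7.66 to 13.9 CPM at PH day 0. Skeletal muscle transcripts were abundant in the PH day 3 libraries of replicates 12 and 14, with 3730 and 214 counts of the muscle actin Acta1 there and at most 1 count in any other library. Injection replicate numbers only name a sample, and PH replicate numbers are those of the labels.

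Sequence sets which reads of these genes could be counted. Reads that map to several places were not counted, and ribosomal protein mRNAs have many near-identical processed pseudogenes in the mouse genome. Of all 50-base stretches in a member's shortest principal transcript, the median member had 46.4% that occur in no other annotated gene; 18 members were under 20% and 49 under 50%. Rps27 was lowest at 1.35%, and Rpl3l and Rpl39l were at 100%. Over all 16 libraries the 83 genes held 217288 counts, and the 5 most counted of them held 40.3% of these. Rps6, the S6 kinase substrate of the small subunit, held 29 counts in all, and Rps27 held 39. The median level was 3.31 CPM per kb of exon in members under 50% unique and 16.5 CPM per kb in members at 50% or more, and Spearman's rho between uniqueness and level was 0.41 over the 83 genes, which share these libraries. Some genes ran against this relation: Rps29 is 64.2% unique and had 0.331 CPM per kb, Rps16 is 59.9% unique and had 0.337 CPM per kb, and Rplp1, the highest of all, is 40% unique. How far sequence set the level of each gene was not tested. Levels of different members are levels of countable reads. They are also divided by the exon length of all annotated transcripts of a gene, which can exceed that of its main mRNA. For Rps24 this length is 6256 bases against 468 in the principal transcript, and for Rplp1 it is 499 in both. The order of levels, their medians and this rho rest on that length. The 306 pseudogenes named after these genes held 1393 counts.

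**Figure D1:**
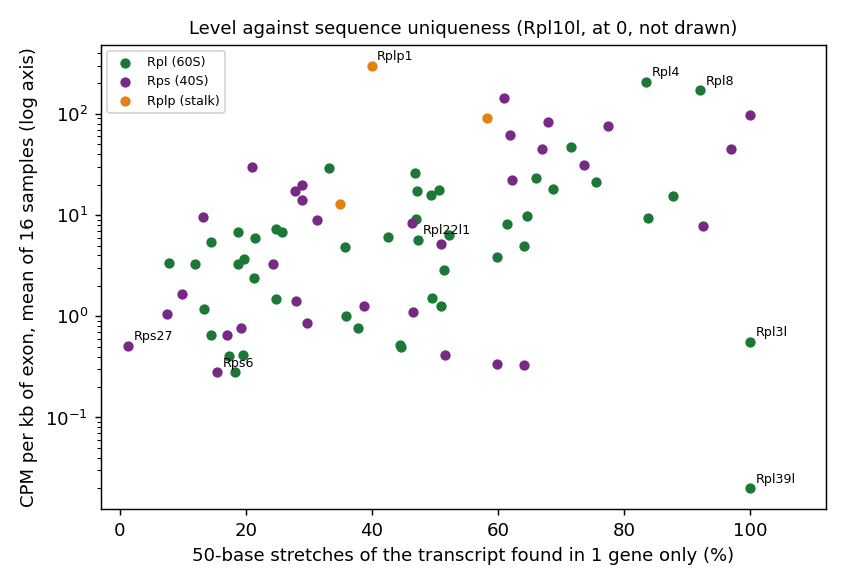
Mean level of each ribosomal protein gene over 16 livers (CPM per kb of exon, log axis) against the percent of 50-base stretches of its transcript found in no other gene; each point is 1 gene, coloured by subunit. Rps27 at 1.35% unique lies low, Rpl4 and Rpl8 lie high, and Rpl3l and Rpl39l are low although all of their stretches are unique.

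By level per kb of exon, averaged over all 16 livers, the stalk gene Rplp1 came first with 299 CPM per kb, followed by Rpl4 with 207 and Rpl8 with 171 CPM per kb, both of the large subunit. Rplp1 averaged 283 ± 81.1 CPM per kb in CCl4 livers and 282 ± 25.7 in olive oil livers (SD, n = 3 each), and 333 ± 44.3 at PH day 3 and 285 ± 40.2 at PH day 0 (SD, n = 5 each). Rpl4 averaged 238 ± 16.1 CPM per kb in CCl4 livers and 208 ± 2.25 in olive oil livers (SD, n = 3 each), and 196 ± 10.4 at PH day 3 and 200 ± 16.7 at PH day 0 (SD, n = 5 each). The 3 lowest were Rps6 at 0.279 CPM per kb, Rpl39l at 0.0201 CPM per kb, and Rpl10l, which had no count in any library.

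The 83 genes together took a larger share of the counts in every CCl4 liver than in any olive oil liver. Their share was 0.330%, 0.447% and 0.466% of all counts in CCl4 replicates 1, 2 and 3, against 0.260%, 0.248% and 0.253% in olive oil replicates 1, 2 and 3. The ratio of the mean shares, CCl4 over olive oil, was 1.63. CCl4 replicate 1 was the lowest of its group and still above the olive oil livers. The share was 0.304%, 0.296%, 0.268%, 0.274% and 0.255% at PH day 3 in replicates 12 to 16, against 0.272%, 0.269%, 0.272%, 0.254% and 0.227% at PH day 0. The ratio of these means was 1.08, and the PH groups overlapped. Scaled by total counts, as this share is, all genes tested had a median log2 fold change of 0.46 after CCl4 and 0.13 at PH day 3. Both ratios therefore hold a shift common to many genes and are not a measure of the members alone. The share rests on all counts of a library, so it also depends on the other genes: the 20 most counted genes took 23.7% to 30.7% of the counts in CCl4 livers and 26.5% to 29.5% in olive oil livers. Without those 20 genes in the total, the share averaged 0.558 ± 0.0730% in CCl4 livers and 0.355 ± 0.00394% in olive oil livers (SD, n = 3 each).

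**Figure D2:**
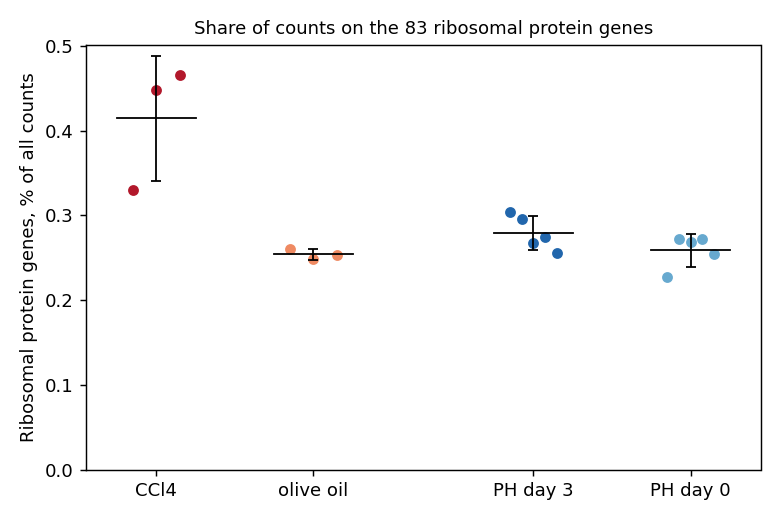
Percent of all counts on the 83 ribosomal protein genes in each liver, with mean (line) and SD (bars) per group; n = 3 for CCl4 and olive oil and n = 5 for PH day 3 and PH day 0. The CCl4 livers lie at 0.330% to 0.466%, above all olive oil livers, and the PH day 3 and day 0 livers overlap.

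CCl4 livers were set against olive oil livers to ask how ribosomal protein transcripts differ in liver regenerating from a toxic injury. Most members had a moderately higher estimate after CCl4, and few passed the test. Of the 67 members with enough counts to be tested, 59 had a positive estimate. The median log2 fold change was 0.35 against 0.01 for all 11337 genes tested, and the estimates ran between -0.29 for Rpl5 and 1.30 for Rpsa. A gene was called changed at an adjusted p under 0.05 (edgeR's quasi-likelihood test, Benjamini-Hochberg adjusted over all genes tested). By this rule 7 members rose, or 10.4% of those tested, a share near the 11.3% of all genes that rose. No member fell by edgeR, DESeq2 or limma-voom, against 11.6% of all genes that fell by edgeR. At an unadjusted p under 0.05, 0 members were lower, against 18% of all genes. At an unadjusted p under 0.05, 26 members were higher, 38.8% of those tested against 18.1% of all genes. In 31 members, 46.3% of those tested, every CCl4 liver lay above every olive oil liver, against 21.8% of all genes. In 1 member, Rpl5, every CCl4 liver lay below, against 19.9% of all genes.

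The median was 0.35 over the 38 tested large-subunit genes and 0.35 over the 26 tested small-subunit genes. It was 0.28 over the 28 tested members that are at least 50% unique and 0.39 over the 39 others. When libraries were scaled by total counts alone, the median of all genes moved up by 0.45 and the members' median to 0.80. By that scaling 38 of the 67 members were called higher, against 26.2% of all genes. The members' median stood 0.35 above that of all genes under that scaling and 0.34 above it with TMM. Stellate cell and fibroblast markers summed to 419 to 1076 CPM in CCl4 livers against 126 to 174 CPM in olive oil livers. Macrophage markers summed to 395 to 549 CPM against 155 to 450 CPM, and cholangiocyte markers to 174 to 295 CPM against 53.4 to 107 CPM. Erythroid markers summed to 133 to 244 CPM in CCl4 livers against 434 to 516 CPM in olive oil livers, without overlap. No listed marker of these 4 types was at 0 in either group. The part of these cells, and of dividing cells, in the members' levels was not tested, and in whole liver a change in the number of cells of a type and in RNA per cell cannot be told apart.

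Among large-subunit members, Rpl22l1, the paralog of Rpl22 (ENSMUSG00000039221, chromosome 3, 28805436 to 28807424, plus strand of GRCm38), had 14.7, 18.1 and 17.7 CPM in CCl4 livers against 8.78, 5.44 and 6.60 CPM in olive oil livers. The groups were far apart, and the log2 fold change was 1.26 ± 0.25 (SE; edgeR adjusted p = 0.0058). Rpl37a had 16.4, 19.8 and 14.3 CPM in CCl4 livers against 7.02, 11.7 and 9.89 CPM in olive oil livers, a log2 fold change of 0.79 ± 0.26 (SE; edgeR adjusted p = 0.0484). Rpl34 had 55.8, 59.0 and 49.1 CPM in CCl4 livers against 33.4, 37.4 and 43.8 CPM in olive oil livers, a log2 fold change of 0.49 ± 0.16 (SE; edgeR adjusted p = 0.045). Rpl32 had 57.9, 61.3 and 60.1 CPM in CCl4 livers against 40.4, 46.6 and 41.9 CPM in olive oil livers, a log2 fold change of 0.45 ± 0.13 (SE; edgeR adjusted p = 0.034). In all of these genes the lowest CCl4 liver lay above the highest olive oil liver. The calls of Rpl32, Rpl34 and Rpl37a were lost when CCl4 replicate 2 or 3 or any single olive oil liver was left out (edgeR adjusted p = 0.0510 to 0.177), while their estimates stayed between 0.39 and 0.96.

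Rpl5 and Rpl11, which carry 5S rRNA into the large subunit and, when free, bind the p53 regulator Mdm2, were not called. Rpl5 had 13.267, 12.9 and 10.7 CPM in CCl4 livers against 15.05, 13.270 and 15.8 CPM in olive oil livers, with an estimate of -0.29 ± 0.21 (SE; edgeR adjusted p = 0.374) that was 0.16 when libraries were scaled by total counts. Rpl11 had 3.58, 3.35 and 2.30 CPM in CCl4 livers against 2.01, 3.26 and 1.65 CPM in olive oil livers, with overlapping groups and an estimate of 0.37 ± 0.47 (SE; edgeR adjusted p = 0.609). Rpl3, which lies by the peptidyl transferase centre, had 21.9, 20.2 and 21.3 CPM in CCl4 livers against 14.8, 13.7 and 16.5 CPM in olive oil livers, with an estimate of 0.47 ± 0.18 (SE; edgeR adjusted p = 0.0917).

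Among small-subunit members, Rps19, a protein needed for maturation of the small-subunit rRNA and often mutated in human Diamond-Blackfan anaemia, had 47.6, 54.0 and 56.9 CPM in CCl4 livers against 33.4, 38.1 and 32.7 CPM in olive oil livers. Its log2 fold change was 0.58 ± 0.14 (SE; edgeR adjusted p = 0.0164). Rps20 had 43.8, 54.5 and 42.3 CPM in CCl4 livers against 33.4, 27.6 and 32.0 CPM in olive oil livers, a log2 fold change of 0.57 ± 0.16 (SE; edgeR adjusted p = 0.0278). Neither gene's groups overlapped. Leaving out CCl4 replicate 2, CCl4 replicate 3, olive oil replicate 1 or olive oil replicate 3 ended the call of Rps19 (edgeR adjusted p up to 0.077). Leaving out CCl4 replicate 2 or any single olive oil liver ended that of Rps20 (edgeR adjusted p up to 0.119). Rpsa, the laminin receptor precursor of the small subunit, had 8.84, 3.47 and 6.73 CPM in CCl4 livers against 2.76, 2.83 and 1.88 CPM in olive oil livers. Its estimate of 1.30 ± 0.46 (SE; edgeR adjusted p = 0.0666) was the largest among members and did not pass. Rps4x, the X-linked small-subunit protein, had an estimate of 0.35 ± 0.16 (SE; edgeR adjusted p = 0.137).

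The 3 stalk genes encode proteins that recruit and activate elongation factors on the large subunit, and 1 of them rose. Rplp2 (ENSMUSG00000025508, chromosome 7, 141447370 to 141451585, plus strand of GRCm38) had 41.7, 30.5 and 34.5 CPM in CCl4 livers against 18.8, 18.3 and 17.0 CPM in olive oil livers. Its log2 fold change was 0.95 ± 0.18, with the smallest adjusted p among members (SE; edgeR adjusted p = 0.0042). It was called under all 13 alternatives, as was Rpl22l1. Its partner Rplp1 had 108, 129 and 186 CPM in CCl4 livers against 152, 127 and 143 CPM in olive oil livers, with CCl4 livers on both sides of the olive oil livers. Its estimate was -0.02 ± 0.20 (SE; edgeR adjusted p = 0.947), or 0.45 under library size scaling and 0.06 under upper quartile scaling. Rplp0, the base of the stalk, had 199, 168 and 192 CPM in CCl4 livers against 149, 146 and 133 CPM in olive oil livers, with an estimate of 0.36 ± 0.15 (SE; edgeR adjusted p = 0.111). Rplp2 is 34.9% unique, against 40% for Rplp1.

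**Figure D3:**
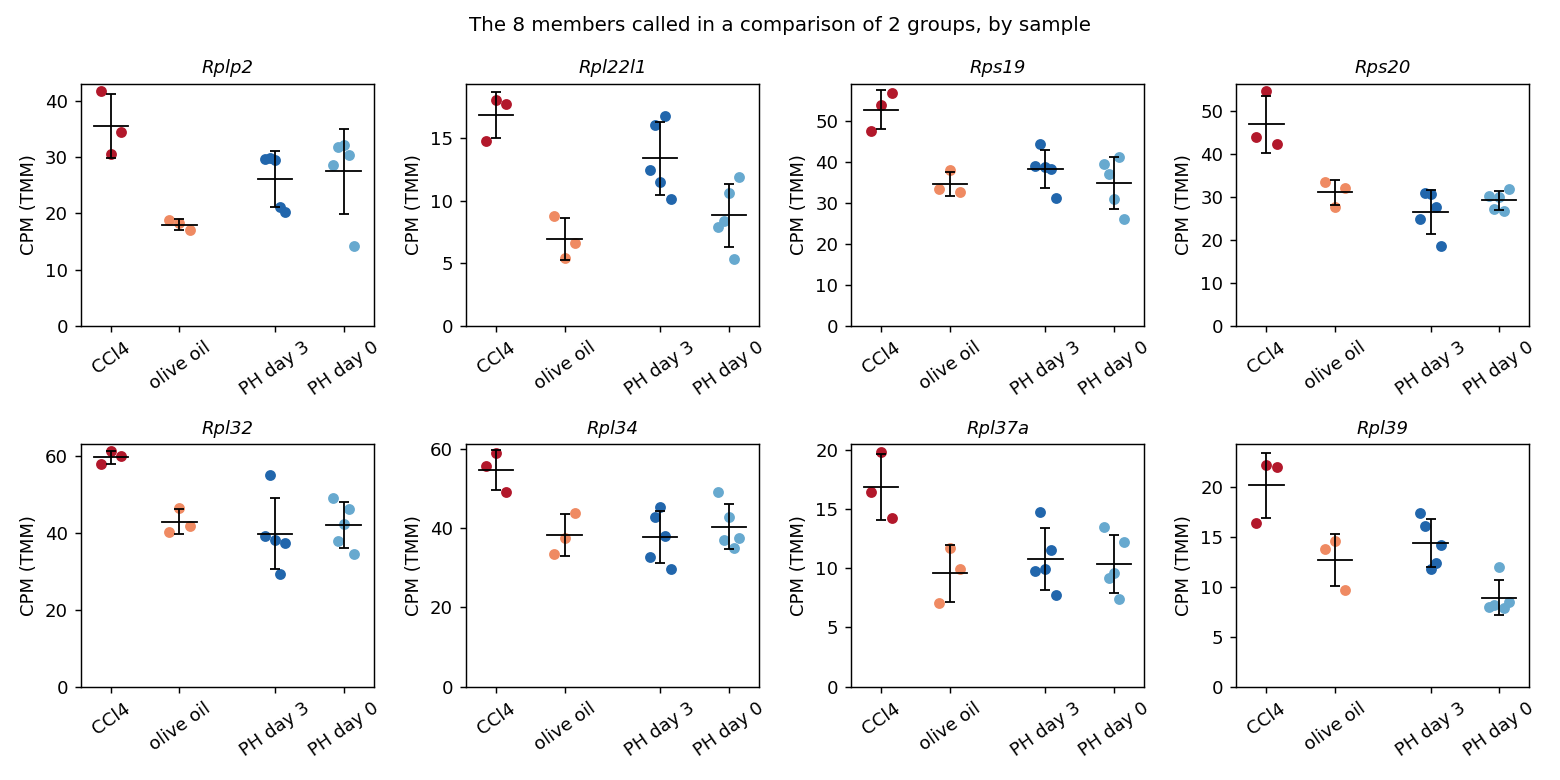
CPM (scaled by TMM) of the 8 ribosomal protein genes called in CCl4 against olive oil or in PH day 3 against day 0; points are livers, lines are means and bars SD, with n = 3, 3, 5 and 5. CCl4 livers lie above olive oil livers in all 8 panels; in PH, only Rpl22l1 and Rpl39 have a clearly higher day 3 mean, and Rplp2 has 1 low day 0 liver at 14.2 CPM.

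The comparison of PH day 3 with PH day 0 asks the same of a liver that regrows after surgery without a toxin. Few members passed the test, and the estimates lay on both sides of 0. Of the 59 members tested, 22 had a positive estimate and 37 a negative one, with a median of -0.06 against -0.01 for all 10546 genes tested. Scaled by total counts, the medians were 0.08 for members and 0.13 for all genes. Rpl39 rose and was the single member called, 1.69% of those tested against 9.73% of all genes that rose. No member fell by edgeR, against 8.01% of all genes. At an unadjusted p under 0.05, 8 members were higher, 13.6% against 15.7% of all genes. By the same rule 2 were lower, 3.39% against 13.6% of all genes. DESeq2 and limma-voom each called 2 members higher and none lower, against 10.6% and 9.83% of all genes called higher. In no member did the 5 day 3 livers all lie above or all lie below the 5 day 0 livers, against 6.5% of all genes above and 6.84% below. The estimates ran between -0.49 for Rpl28 and 0.77 for Rpl12. Without the day 3 libraries of replicates 12 and 14, which held muscle transcripts, the median was -0.04 and Rps27l was the single member called. Rps27l was higher there, as were 7.69% of all genes. Stellate cell and fibroblast markers summed to 243 to 614 CPM at PH day 3 against 128 to 266 CPM at PH day 0, and cholangiocyte markers to 138 to 244 against 78.1 to 178 CPM. Erythroid markers summed to 684 to 1868 CPM at PH day 3 against 757 to 2060 CPM at PH day 0. The part of these cells, and of the higher hepatocyte marker level at PH day 3, in the members' levels was not tested.

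Rpl39, a small basic protein of the peptide exit tunnel (ENSMUSG00000079641, chromosome X, 37082520 to 37085402, minus strand of GRCm38), had 17.4, 16.1, 11.8, 12.4 and 14.2 CPM at PH day 3 in replicates 12 to 16, against 8.00, 8.16, 12.0, 7.88 and 8.47 CPM at PH day 0. The day 0 liver of replicate 14 was the single one inside the day 3 range. The log2 fold change was 0.73 ± 0.20 (SE; edgeR adjusted p = 0.014). It was 0.69 without the 2 day 3 libraries that held muscle transcripts, where the call was lost (edgeR adjusted p = 0.0551). In the injection experiment Rpl39 had 16.4, 22.2 and 21.99 CPM in CCl4 livers against 13.8, 14.6 and 9.66 CPM in olive oil livers, an estimate of 0.65 ± 0.23 that did not pass (SE; edgeR adjusted p = 0.0654). Rpl3 had 14.3, 23.4, 18.6, 21.4 and 17.2 CPM at PH day 3 against 16.0, 15.8, 13.9, 11.4 and 12.5 CPM at PH day 0, with an estimate of 0.46 ± 0.18 (SE; edgeR adjusted p = 0.0742). The 7 genes called after CCl4 had PH estimates of -0.11 for Rps20, -0.08 for Rpl34, -0.06 for Rpl32, -0.06 for Rplp2, 0.07 for Rpl37a, 0.15 for Rps19 and 0.65 for Rpl22l1, none of which passed.

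**Figure D4:**
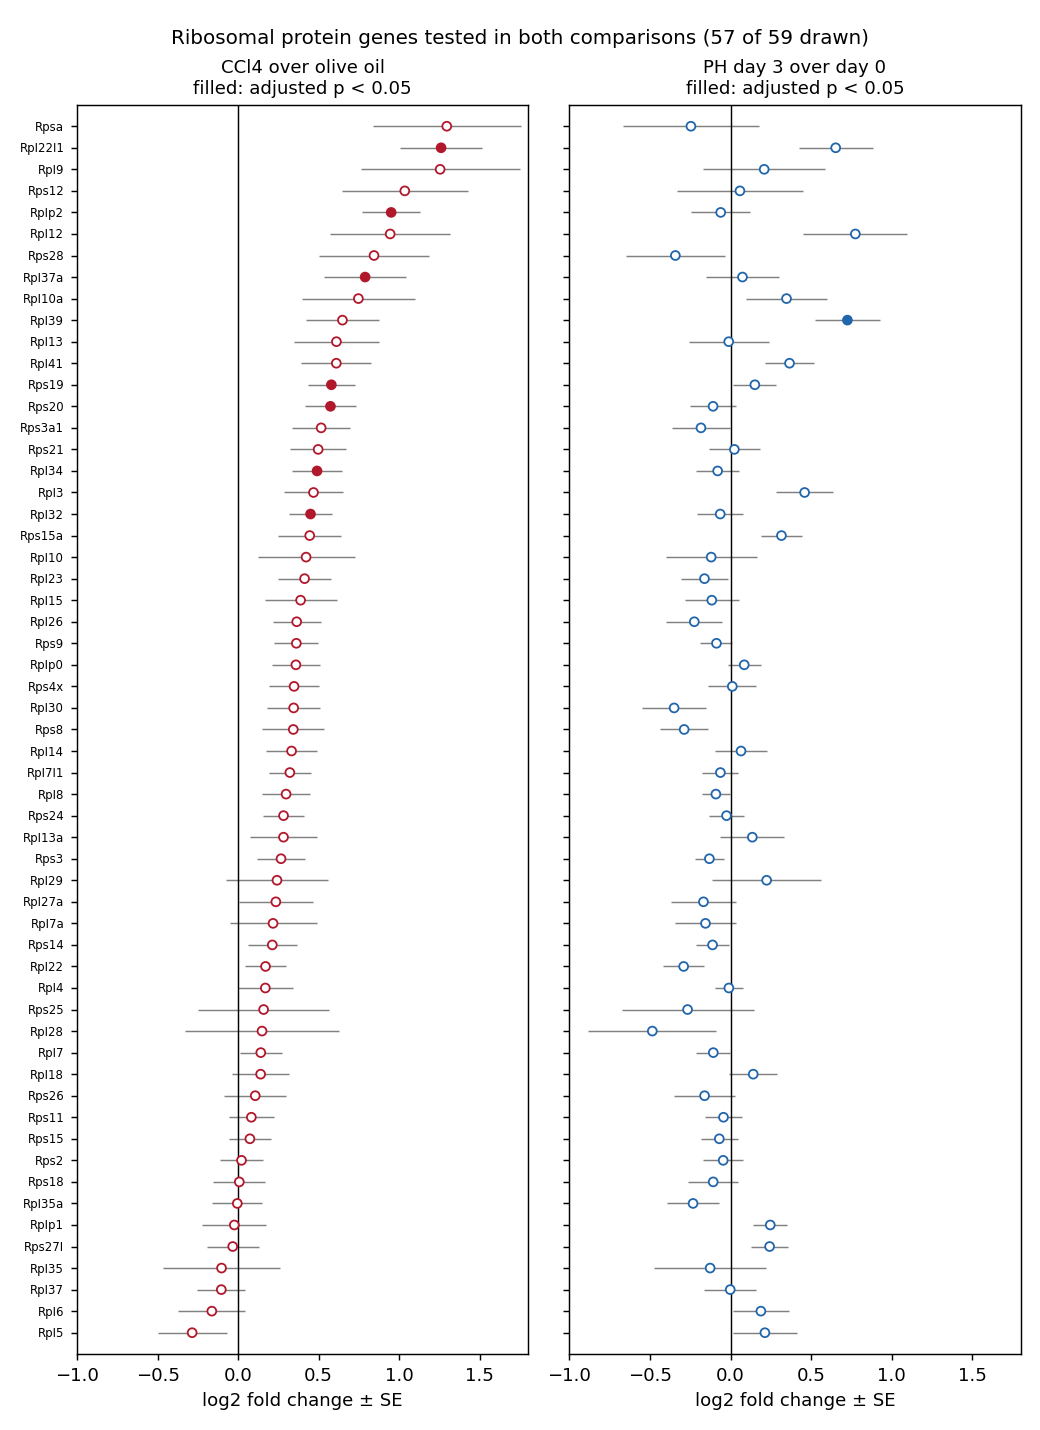
Log2 fold change with SE of 57 of the 59 ribosomal protein genes tested in both comparisons, sorted by the CCl4 estimate; left, CCl4 over olive oil, right, PH day 3 over day 0; filled points have an edgeR adjusted p under 0.05. Most CCl4 estimates lie right of 0 and PH estimates lie on both sides of it.

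The difference between the responses, CCl4 over olive oil minus PH day 3 over day 0, was tested over all 16 libraries. Its median was 0.42 over 68 members tested against 0.02 over all 11868 genes, and 59 of the members had a positive estimate. Rplp2 was the single member called, higher in the CCl4 response, 1.47% of members against 1.47% of all genes. None was called lower by edgeR, DESeq2 or limma-voom, against 3.87% of all genes by edgeR. At an unadjusted p under 0.05, 22 members were higher, 32.4% of those tested against 8.39% of all genes. By the same rule 0 were lower, against 10.8% of all genes. For Rplp2 the difference was 1.04 ± 0.29 (SE; edgeR adjusted p = 0.0338), from an estimate of 0.95 after CCl4 and -0.06 after PH. At PH day 3 Rplp2 had 29.7, 29.8, 29.5, 21.2 and 20.2 CPM in replicates 12 to 16, against 28.7, 31.9, 32.2, 30.4 and 14.2 CPM at PH day 0, where replicate 16 lay far below the others. The call was lost without CCl4 replicate 1, without any single olive oil liver, without PH day 3 replicate 15 or 16, or without PH day 0 replicate 13, 14 or 15 (estimates 0.91 to 1.07, edgeR adjusted p = 0.0578 to 0.0980). Without the 2 day 3 libraries that held muscle transcripts, the difference of Rplp2 was 1.18 and was called, and the members' median was 0.38. Rps20 had an estimate of 0.71 ± 0.21 (SE; edgeR adjusted p = 0.0522), with 24.9, 30.9, 30.8, 27.6 and 18.5 CPM at PH day 3 against 30.3, 27.2, 29.8, 26.7 and 31.8 CPM at PH day 0. Of the 59 members tested in both comparisons, 52 had the larger estimate after CCl4, against 47.9% of the 10468 genes tested in both. By sign, 33 were positive after CCl4 and negative after PH, 18 positive in both, 4 negative in both and 4 negative after CCl4 and positive after PH. The 2 experiments carry separate names in the file headers, so that the kind of injury and the experiment cannot be told apart in this difference.

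Rpl22 and Rpl22l1 encode alternative forms of the same large-subunit protein, and in mouse Rpl22 is known to hold down Rpl22l1. Their share of the pair does not depend on how libraries are scaled, and their principal transcripts share 0 of the 50-base stretches. Rpl22 had 64.9, 73.1 and 73.7 CPM in CCl4 livers against 59.2, 63.1 and 62.4 CPM in olive oil livers, with an estimate of 0.17 ± 0.13 (SE; edgeR adjusted p = 0.369). At PH day 3 it had 55.5, 60.7, 55.6, 49.7 and 38.4 CPM against 63.2, 50.9, 70.9, 60.5 and 79.3 CPM at PH day 0, with an estimate of -0.29 ± 0.13 (SE; edgeR adjusted p = 0.127). Rpl22l1 had 12.5, 16.1, 11.5, 16.8 and 10.1 CPM at PH day 3 against 7.86, 8.40, 10.7, 5.33 and 11.9 CPM at PH day 0, with an estimate of 0.65 ± 0.23 that just missed the threshold (SE; edgeR adjusted p = 0.0511).

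Such a share is one of countable reads, since Rpl22l1 is 47.3% and Rpl22 75.5% unique, so it is read only between groups. By counts per exon length, Rpl22l1 made up 24.96%, 26.6% and 26.0% of the pair in CCl4 livers against 17.8%, 11.2% and 13.4% in olive oil livers. At PH day 3 it made up 24.7%, 27.9%, 23.2%, 33.1% and 27.8% of the pair in replicates 12 to 16, against 15.4%, 19.5%, 18.0%, 11.4% and 18.0% at PH day 0. The groups did not overlap in either experiment. The share averaged 25.9 ± 0.828% in CCl4 livers and 14.1 ± 3.38% in olive oil livers (SD, n = 3 each; exact permutation test, two-sided, p = 0.1, the smallest this design allows). It averaged 27.4 ± 3.79% at PH day 3 and 16.5 ± 3.17% at PH day 0 (SD, n = 5 each; exact permutation test, two-sided, p = 0.0079, the smallest this design allows). Adjusted over the 9 such tests of paralog pairs, the p-values were 0.3 and 0.071 in these permutation tests. With 9 tests, a single pair whose groups separate fully cannot pass 0.05 in either experiment. The difference between the 2 groups was 10.2 to 13.6 percentage points in the injection experiment and 9.47 to 11.9 in the PH experiment when each liver was left out in turn.

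**Figure D5:**
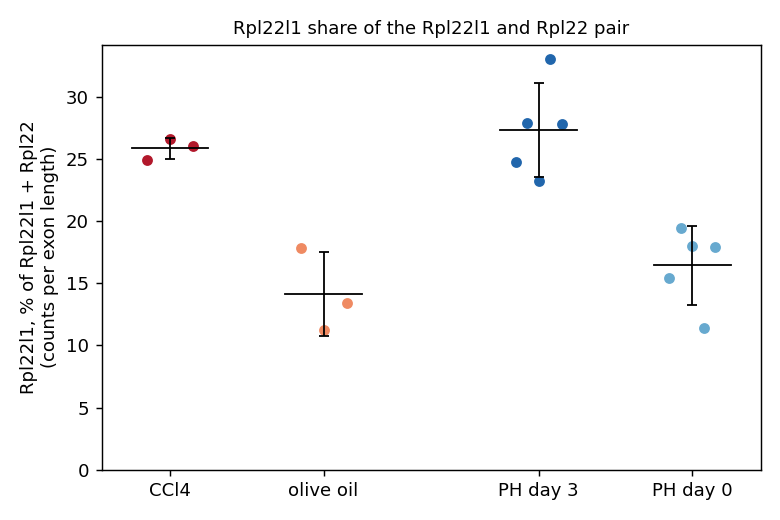
Rpl22l1 as percent of the Rpl22l1 and Rpl22 pair, by counts per exon length, in each liver; lines are means, bars SD, n = 3 for CCl4 and olive oil and n = 5 for PH day 3 and day 0. CCl4 livers lie at 24.96% to 26.6% and PH day 3 livers at 23.2% to 33.1%, and the olive oil and PH day 0 livers all lie below 20%.

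Among the other paralogs, Rpl3l, the striated muscle paralog of Rpl3, had 58 counts in PH day 3 replicate 12, 3 in PH day 3 replicate 14, 1 each in PH day 0 replicates 14 and 16, and 0 in the remaining libraries. In those 2 day 3 libraries Acta1, the muscle creatine kinase Ckm and the fast troponin Tnnt3 were abundant too, with 3730, 1254 and 1731 counts in replicate 12 and 214, 76 and 121 in replicate 14. Rpl39l, a testis paralog, had 2 counts, both in PH day 0 replicate 12, and the testis paralog Rpl10l had 0 counts in all libraries. Rpl7l1 made up 33.6 ± 0.638% of its pair with Rpl7 in CCl4 livers and 31.0 ± 2.97% in olive oil livers (SD, n = 3 each; exact permutation test, two-sided, p = 0.4). It made up 36.5 ± 2.81% at PH day 3 and 35.8 ± 1.63% at PH day 0 (SD, n = 5 each; exact permutation test, two-sided, p = 0.675). Rps27l, which p53 induces in human cells, had 54.5, 76.8 and 80.6 CPM in CCl4 livers against 76.5, 65.7 and 70.9 CPM in olive oil livers, in overlapping groups. Its estimate was -0.03 ± 0.16 (SE; edgeR adjusted p = 0.909), or 0.44 under library size scaling and 0.05 under upper quartile scaling. Rps27 is 1.35% unique, so the size of the Rps27l share in their pair is not read. The shares of the pairs with Rpl7 (33.2% unique) and Rps4x (27.8% unique) are shares of countable reads too. Rps4l is a transcribed processed pseudogene in the annotation and no member. It made up 36.8 ± 7.85% of its pair with Rps4x in CCl4 livers and 42.7 ± 2.86% in olive oil livers (SD, n = 3 each; exact permutation test, two-sided, p = 0.3). The share of Rps4l was 45.5 ± 6.01% at PH day 3, and 42.8 ± 8.77% at PH day 0 (SD, n = 5 each; exact permutation test, two-sided, p = 0.595).

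Members without enough counts to be tested numbered 16 in the CCl4 comparison and 24 in the PH comparison, and 15 were tested nowhere, among them Rpl10l, Rpl39l, Rpl3l, Rpl19, Rpl24, Rpl38, Rps6, Rps27 and Rps29. Summed over these 15 genes, the level was 5.33 to 8.04 CPM in CCl4 livers against 5.22 to 11.1 CPM in olive oil livers, and 5.06 to 21.1 CPM at PH day 3 against 3.94 to 7.19 CPM at PH day 0. The groups overlapped in both experiments, and the largest PH day 3 sum belonged to replicate 12, whose Rpl3l level alone was 13.1 CPM. Whether their low counts reflect low expression or uncountable reads was not tested.

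Ribosomal protein promoters share short elements near the start site. The RefSeq table (GRCm38.p6) had 75 start sites of 63 members, each with 250 bases before and 50 bases after the start. The pyrimidine run CTTTC on the gene's strand lay within 40 bases before to 20 bases after 29.3% of member starts, against 8.11% of all 32851 starts in the table. CTTCCG, the core of the ETS family motif, lay on either strand within the whole window of 60% of member starts, against 16.9% of all starts. The window and strand thus differ between the motifs. On the gene's strand, CTTTC lay within the whole window of 64% of member starts, against 34.8% of all starts. CTTCCG lay on that strand within 40 bases before to 20 bases after 8% of member starts, against 3.39%. Matches of both motifs can overlap by at most 1 base. The 60 bases around the start (40 before, 20 after, 5′ to 3′) are shown for the 4 called members with 1 listed start. Capitals mark CTTTC or CTTCCG on the strand shown, and other pyrimidine runs are not marked.
Rplp2 (chr7:141447611-141447670, plus strand): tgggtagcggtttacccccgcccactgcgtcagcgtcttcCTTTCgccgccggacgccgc
Rpl37a (chr1:72711220-72711279, plus strand): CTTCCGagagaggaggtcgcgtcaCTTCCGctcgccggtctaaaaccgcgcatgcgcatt
Rpl22l1 (chr3:28805468-28805527, plus strand): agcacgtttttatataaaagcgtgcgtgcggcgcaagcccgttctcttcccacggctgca
Rpl39 (chrX:37085203-37085262, minus strand): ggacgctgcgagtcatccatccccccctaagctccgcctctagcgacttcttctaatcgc
In Rplp2 the CTTTC run begins at the listed start itself, Rpl37a holds CTTCCG at 2 places upstream, and in Rpl22l1 and Rpl39 neither motif is found in these 60 bases. Whether either motif goes with a gene's response was not tested.

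Other genes of translation were followed as background. Rack1, a small-subunit protein under another symbol, rose after CCl4 to 395 ± 18.7 CPM, against 263 ± 18.7 CPM in olive oil livers (SD, n = 3 each), a log2 fold change of 0.56 ± 0.16 (SE; edgeR adjusted p = 0.0324). It averaged 289 ± 21.4 CPM at PH day 3 and 279 ± 16.5 CPM at PH day 0 (SD, n = 5 each). Its difference between the responses passed at 0.52 ± 0.15 (SE; edgeR adjusted p = 0.0374). Rpl36al had an estimate of 0.93 ± 0.70 after CCl4 (SE; edgeR adjusted p = 0.372). Of 6 elongation factors tested, 1 rose after CCl4, Eef1g (16.7% against 11.3% of all genes), and 1 fell at PH day 3, Eef1a1 (16.7% against 8.01%). Eef1a1 fell to 570 ± 38.0 CPM against 780 ± 27.1 CPM at PH day 0 (SD, n = 5 each; log2 fold change -0.43 ± 0.09; edgeR adjusted p = 0.00073). After CCl4, 4 of the 6 had a positive estimate, while Eef1a1 and Eef2 had -0.34 and -0.40 (edgeR adjusted p = 0.213 and 0.183). Of 6 other TOP mRNAs, 1 rose after CCl4 (16.7% against 11.3% of all genes). This was Nap1l1, a histone chaperone, at 43.6 ± 3.49 CPM against 23.5 ± 4.82 CPM in olive oil livers (SD, n = 3 each). Its difference between the responses was 0.93 ± 0.23 (SE; edgeR adjusted p = 0.0185). These 6 had a median estimate of 0.05 after CCl4, with 3 positive, and Naca was lowest at -0.40 (edgeR adjusted p = 0.128). Of 40 initiation factors, 3 rose (7.5% against 11.3% of all genes) and 2 fell (5% against 11.6%) after CCl4. After PH, 3 rose (7.5% against 9.73%) and 5 fell (12.5% against 8.01%) by day 3. Eif4b, the cofactor of the Eif4a helicase, and Eif4a2 fell in both, with Eif4b at -0.60 ± 0.15 after CCl4 and -0.60 ± 0.08 at PH day 3 (log2 fold change ± SE). Eif6, which keeps the large subunit from joining early, rose in both, by 0.81 ± 0.22 and 0.39 ± 0.12 on the log2 scale.

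Of 11 chaperones and importins of ribosomal proteins, 1 rose in each comparison, the importin Kpnb1, by 0.97 ± 0.16 after CCl4 and 0.52 ± 0.09 at PH day 3 on the log2 scale (SE). This was 9.09% of those tested, against 11.3% of all genes after CCl4 and 9.73% at PH day 3. After CCl4, DESeq2 called 2 of the 11 higher and library size scaling 8, against 12.0% and 26.2% of all genes. Of 14 RNA polymerase I genes, which transcribe ribosomal RNA, 0 were called after CCl4 with edgeR, against 11.3% of all genes higher and 11.6% lower. Rrn3 and Polr1c fell at PH day 3, 14.3% of those tested against 8.01% of all genes. Of 18 mTORC1 and MYC genes tested, Myc rose after CCl4 to 14.0 ± 4.39 CPM against 2.20 ± 1.18 CPM in olive oil livers (SD, n = 3 each). Deptor, Rptor and Mtor fell. Those that rose were 5.56% against 11.3% of all genes, and those that fell 16.7% against 11.6%. At PH day 3, Deptor, Rptor, Tsc1 and Eif4ebp2 fell, 22.2% of those tested against 8.01% of all genes. The mitochondrial ribosomal proteins, a separate set that translates mitochondrial mRNA, had 0 genes higher and 7 lower of 75 tested after CCl4, with a median of -0.11. At PH day 3 they had 1 higher and 7 lower of 74, with a median of -0.09. The lower genes were 9.33% of those tested after CCl4, against 11.6% of all genes, and 9.46% at PH day 3, against 8.01% of all genes. Mrpl38 and Mrpl34 fell in both comparisons, with Mrpl38 at -0.92 ± 0.14 after CCl4 and -0.43 ± 0.12 at PH day 3 (log2 fold change ± SE). Under library size scaling 10 of the 75 mitochondrial genes were called higher after CCl4, against 26.2% of all genes, and 0 lower. No initiation factor or mTORC1 and MYC gene was called lower there. At PH day 3 under library size scaling, 0 of 14 RNA polymerase I genes were called lower and 1 higher. Genes called lower numbered 2 of 18 for mTORC1 and MYC, 1 of 74 for mitochondrial ribosomal proteins and 3 of 40 for initiation factors. The share of all genes called lower under that scaling is not given here.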

How the data were processed

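Poly(A) RNA libraries of 16 livers were counted by the authors; the deposited values are raw counts per gene, made per the file headers with featureCounts 1.6.2 on Ensembl release 95. Reads were counted as reverse-stranded, and those mapping to several places or overlapping several genes were dropped. The submitters' processing notes list the aligner STAR 2.5.1, Subread and the build GRCm38. Symbols and coordinates came from GENCODE M21. Members, gene lists and tests were chosen with earlier results of these data known. No label ties samples to separate animals, so p-values measure the spread between these samples.

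Counts were tested with edgeR 4.0.16 (R 4.3.3; quasi-likelihood, TMM, filterByExpr with minimum count 10 and total 15). A call is a Benjamini-Hochberg adjusted p under 0.05. CCl4 and PH were fitted separately and their difference in a 4-group fit. Standard errors are the log2 fold change over the square root of F. Paralog shares used exact permutation tests. Named members were a panel of paralogs, their parents, Rplp0 to Rplp2, Rpsa, Rpl5, Rpl11 and Rps6, all called members, and the 3 highest and lowest levels. Of other lists, the called genes of smallest adjusted p were named, and some further ones after their values were seen. Alternatives were other scalings, filters, DESeq2 1.42.0, limma-voom (limma 3.58.1), a replicate block and each sample left out; the code was tested on simulated data. No 2 libraries were alike: between replicates, chi-square over its degrees of freedom was 5.51 to 72.3. Some members are counted in the totals but not reported here by name.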

Additional observations from a re-analysis of the deposited data

Results flagged for a closer look

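The difference between the CCl4 and PH responses of Rplp2, 1.04 on the log2 scale, passed its test (edgeR adjusted p = 0.0338). In 5 cases a single liver lay far from the other 4 of its group, a distance that chance gives in about 1 in 20 groups. The groups looked at were the day 3 and day 0 livers of 27 genes, 54 groups in all, and not those of every member. Rpl3l had 13.1 CPM in PH day 3 replicate 12, against at most 0.932 CPM in the other day 3 livers. At PH day 0, Rplp2 was low in replicate 16 with 14.2 CPM, Rpl39 was high in replicate 14 with 12.0 CPM, Rpl11 was high in replicate 12 with 2.799 CPM, and Rpl39l had 0.267 CPM in replicate 12 and 0 elsewhere. The Rpl39l value is 2 counts. With 0 in the other livers any count would be flagged, so the rate of 1 in 20 does not apply to it.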

How the results depend on the processing

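Low counts limit many values: 15 members could not be tested anywhere, and a fold change of members with few counts has a wide error. The part of depth and of uniqueness in these low counts was not tested. The members called higher after CCl4, 7 of 67 as reported, numbered 2 at an adjusted p under 0.01, 38 with library size scaling and 12 with upper quartile scaling. The cutoff of 0.01, here and below, can only lower a count, and the share of all genes that pass it is not given. Of all genes, 26.2% were called higher with library size scaling and 13.4% with upper quartile scaling. With each liver left out, members called higher numbered 3 to 12 (3 without CCl4 replicate 2 or 3 or any single olive oil liver, 12 without CCl4 replicate 1). Of all genes, 14.3% were called higher without CCl4 replicate 1, and 5.98% to 8.33% in the other fits with a liver left out. Members called higher at PH day 3, 1 of 59 as reported, numbered 0 at an adjusted p under 0.01, 7 with library size scaling, 2 with DESeq2 and 2 with limma-voom. Of all genes, 15.3% were called higher with library size scaling, 10.6% with DESeq2 and 9.83% with limma-voom. With each liver left out, 8.24% to 9.47% of all genes were called higher. Members called higher then numbered 1 to 3 (2 without PH day 0 replicate 14 or 16 or PH day 3 replicate 12 or 13, and 3 without PH day 3 replicate 16). Those called lower numbered 0 to 1 (1 without PH day 3 replicate 13), and the share of all genes called lower in these fits is not given. Members called higher in the difference, 1 of 68 as reported, numbered 0 at an adjusted p under 0.01, 10 with library size scaling, 2 with upper quartile scaling, 4 with DESeq2 and 2 with limma-voom. Of all genes, 4.05%, 1.96%, 2.35% and 1.20% were called higher under these scalings and tools, in that order. With each liver left out, 0.654% to 2.00% of all genes were called higher. Members called higher then numbered 0 to 3 (0 without any single olive oil liver, PH day 0 replicate 13, 14 or 15 or PH day 3 replicate 15 or 16; 3 without CCl4 replicate 1 or PH day 3 replicate 13). Library size scaling moved the members' median to 0.80 after CCl4 and 0.71 in the difference, with the median of all genes moved by 0.45 and 0.28. Without PH day 3 replicates 12 and 14, an alternative chosen after seeing the data, as was the restriction to members at least 50% unique, Rps27l was the single member called at PH day 3. In that fit 7.69% of all genes were called higher.

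Beyond single livers, the call after CCl4 was lost for Rpl32 with no filter, for Rpl34 with DESeq2 and for Rpl37a with limma-voom or a filter of 1 CPM. Estimates near 0 changed sign. After CCl4, library size scaling gave 0.16 for Rpl5, 0.45 for Rplp1 and 0.44 for Rps27l, and upper quartile scaling gave 0.057 for Rplp1 and 0.048 for Rps27l; with each liver left out Rplp1 ran from -0.27 to 0.14 and Rps27l from -0.13 to 0.12. After PH, library size scaling gave 0.018 for Rpl10, 0.028 for Rpl7, 0.079 for Rpl7l1 and 0.071 for Rplp2, leaving out the libraries with muscle transcripts gave -0.042 for Rplp0, and Rps4x was -0.0048 with upper quartile scaling and -0.014 with no filter. With each PH liver left out, Rpl10 ran from -0.33 to 0.027, Rpl7l1 from -0.11 to 0.0048, Rplp2 from -0.21 to 0.010 and Rps4x from -0.078 to 0.075. The PH difference in pair share ran from -0.293 to 1.58 percentage points for Rpl7l1 and from -0.280 to 0.120 for Rps27l. The cause of these changes was not tested.

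The PH replicate numbers are shared between day 3 and day 0. Over 10546 genes, deviations from the group mean in same-numbered livers correlated at -0.048 to 0.112, and 3 of 5 day 3 livers were closest to their own number. Whether a shared number marks 1 animal cannot be told from these values. With the replicate block, 1 member was called, against 9.80% of all genes called higher, and the members' median was -0.05.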
